A study of Drosophila melanogaster with 6 samples.

Results

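Ion channels and transmitter receptors give nerve and muscle cells their electrical signalling, and 37 genes of these families were followed through whole Drosophila melanogaster embryos labelled as null for the cadherin gene fat (ft). The genes were chosen by name, and all 37 were found under those names among the 17208 genes of the table, with positions in the annotation and enough reads to be tested. They comprise 14 voltage-gated channels, 3 calcium-activated or leak channels, 15 receptor subunits known mainly from neurons (called nerve receptors here) and the 5 glutamate receptor subunits of the body wall muscle (muscle receptors). RNA came from whole embryos aged 16-20 h at 25 °C, in 4 libraries of the genotype ft fd5-5/ft X13, called ft null here, and 2 libraries of w1118, the wild type of the study, a laboratory strain that carries a mutation in the eye colour gene white. The ft null embryos carry a different allele of ft on each homologous chromosome, and the labels name no transgene, sorting step or pooling of embryos. The comparison asks which of these transcripts differ between ft null and w1118 embryos. Strain background and developmental stage within the collection window may vary with genotype here and cannot be told apart from the ft alleles.

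Voltage-gated channels open when the membrane potential changes and shape the action potential, transmitter release and repolarisation. Ligand-gated receptors open when a transmitter binds. In insects acetylcholine is the main fast excitatory transmitter of the central nervous system and acts on nicotinic receptors, GABA and glutamate gate inhibitory chloride channels, and glutamate is the transmitter at the muscle. The Drosophila muscle receptor needs the subunits GluRIIC, GluRIID and GluRIIE together with either GluRIIA or GluRIIB. At the end of embryogenesis these neuromuscular synapses become active and the embryo begins to move.

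Library totals ran from 21261928 to 29151981 estimated counts. Pairs of libraries had Spearman correlations across genes, which are not independent replicates, of 0.977 to 0.994 within a genotype and 0.965 to 0.983 between genotypes. Of all 11542 genes tested, 4.3% were called by edgeR at an adjusted p under 0.05, 2.15% higher and 2.15% lower in the mutants. The ft transcript itself ran from 28.6 to 32.2 CPM (counts scaled to a common library size) over the mutant libraries, below 43.2 and 46.3 CPM in the controls (log2 fold change -0.57, edgeR adjusted p = 0.0249). The white transcript was at 0.384 to 1.14 CPM in the mutants and at 0.0975 and 0 CPM in the controls (edgeR adjusted p = 0.0671). As a check of the tissue, all 21 neuron markers were detected, among them elav at 91.1 to 101 CPM in the mutants and 88.9 and 95.4 CPM in w1118, although 16 of the 21 had a log2 fold change below 0. The muscle myosin gene Mhc was at 8199 to 10088 and at 5921 and 10626 CPM, and the glial gene repo was detected in every library. In whole embryos, fewer cells of a type and less RNA per cell cannot be told apart.

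Of the 37 genes, 1 fell in ft null, 0 rose and 36 did not pass the test. A share of 2.70% called lower is near the 2.15% of all genes. The log2 fold change was below 0 for 31 of the 37, against 48.1% of all genes, and the median was -0.27, against 0.01 over all genes. In 11 members, or 29.7%, all 4 ft null values lay below both w1118 values, against 16.4% of all genes. In 2 members, or 5.41%, they lay above, against 15.1% of all genes. The same 13 members had an unadjusted edgeR p under 0.05, 11 lower and 2 higher, against 10.2% and 9.92% of all genes (20.1% in either direction). The 11 were all channels and nerve receptors and the 2 were both muscle receptors. Members share libraries and a tissue, so these counts describe the list and are not independent observations.

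**Figure D1:**
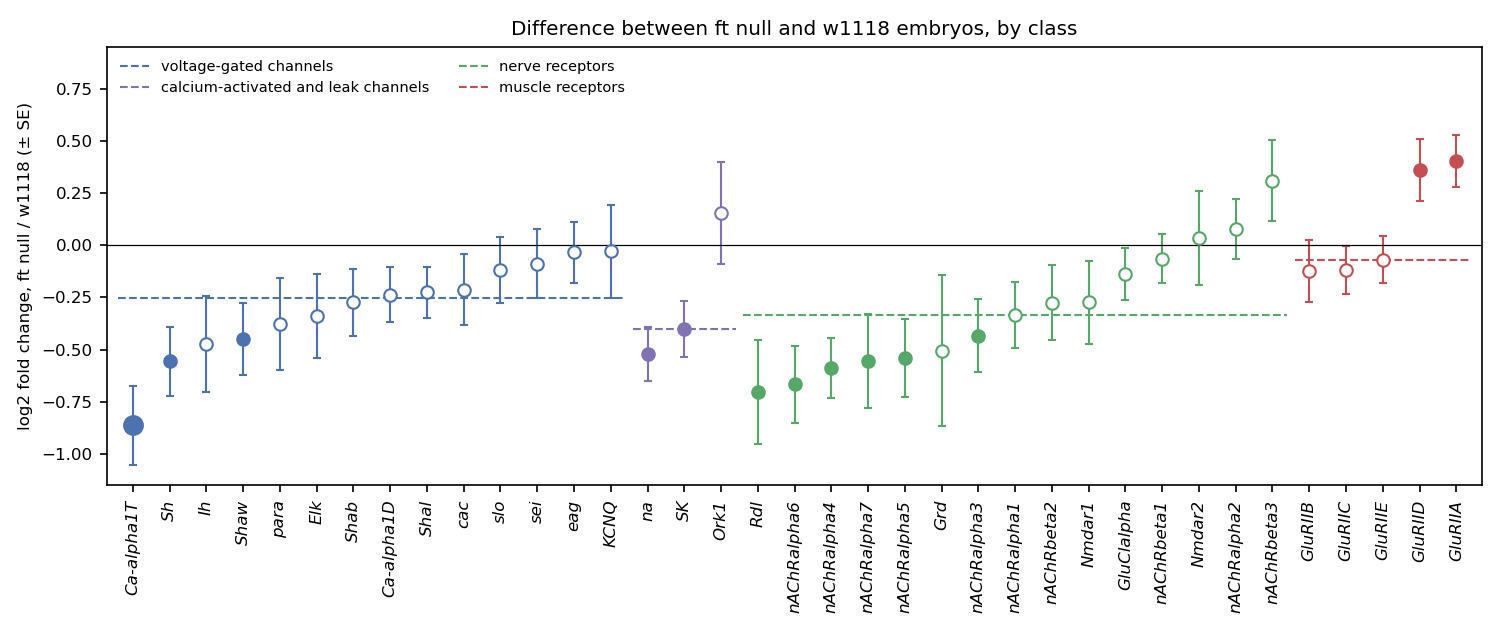
Log2 fold change of each gene, ft null over w1118, with its standard error from edgeR (4 against 2 libraries). Filled points are genes whose ft null and w1118 values do not overlap, the large point is the 1 called gene (Ca-alpha1T, -0.86), and dashed lines are class medians, from -0.40 for calcium-activated and leak channels to -0.07 for muscle receptors.

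The libraries were not alike within a genotype. For each gene, the deviation of its log2 CPM from its own mean over the 6 libraries was taken, and the median over a class was compared between libraries. Over all 37 genes the median deviation came to -0.30, -0.05, -0.01 and 0.07 for ft null replicates 1 to 4, against 0.00 and 0.36 in w1118 replicates 1 and 2. The lowest of the 6 values lay in ft null replicate 1 for 26 genes, and the highest was that of w1118 replicate 2 for 29 genes. The neuron markers, 21 genes that include elav and synaptic vesicle genes, had medians of -0.28, -0.06, -0.04 and 0.08 in ft null and 0.01 and 0.33 in w1118. The part that this movement of neuronal transcripts has in the values below was not tested. Without w1118 replicate 2, 24 of the 37 log2 fold changes were below 0 in place of 31, and the median moved from -0.25 to -0.06 for the voltage-gated channels and from -0.33 to -0.10 for the nerve receptors. Without w1118 replicate 1 these medians were -0.50 and -0.48.

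**Figure D2:**
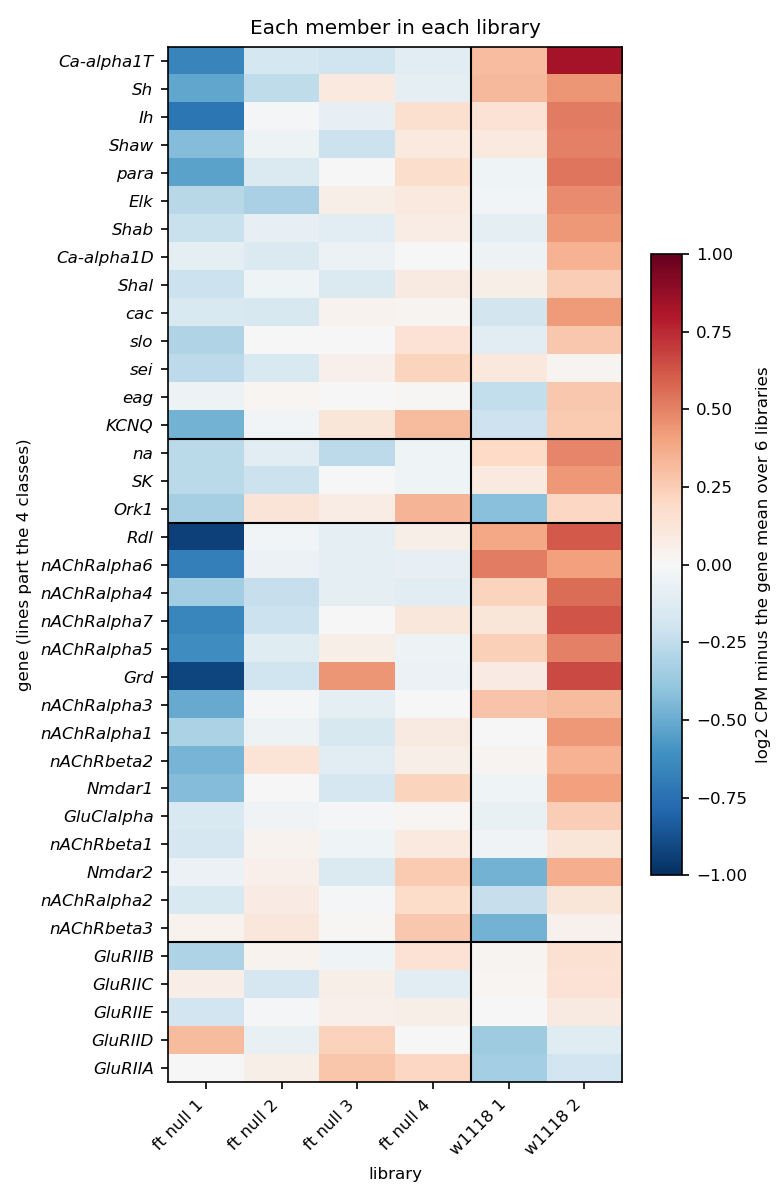
Log2 CPM of each gene minus its mean over the 6 libraries, with genes grouped by class and ordered by fold change. Most channels and nerve receptors are lowest in ft null replicate 1 and highest in w1118 replicate 2, whereas GluRIIA and GluRIID are lowest in the w1118 libraries.

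To compare genes, levels were set per length, as CPM per kb of merged exon. Nicotinic subunits gave both the top of the range and values near its bottom. The gene with the highest level was nAChRbeta1, which stood at 25.4, 29.3, 27.7 and 30.5 CPM per kb in ft null and at 27.9 and 31.1 in w1118. The genotypes overlapped (log2 fold change -0.06, standard error 0.116, edgeR adjusted p = 0.81). At the other end was Grd, a relative of the GABA receptor subunits, at 0.367, 0.604, 0.960 and 0.671 CPM per kb in ft null and 0.744 and 1.12 in w1118. On the CPM scale Grd was at 1.49 to 4.55, with at least 31.46 estimated counts in each library, and 27.5% of its exon length is shared with CG5577 on the opposite strand, whose reads this unstranded kit cannot separate from those of Grd. Ordered by mean level, neighbouring genes mostly overlapped over the 6 libraries. Of 36 neighbouring pairs 1 did not, the leak channel gene Ork1 above nAChRalpha3.

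Summed over members, the 14 voltage-gated channels reached 108 ± 12.4 CPM per kb in ft null (SD, n = 4) and 129 ± 24.7 in w1118 (SD, n = 2). The 15 nerve receptors reached 137 ± 16.0 and 157 ± 24.9, and the 5 muscle receptors 67.4 ± 3.29 and 64.1 ± 4.35. These differences of level are no larger than the SD over w1118 libraries. The 3 calcium-activated and leak channels reached 12.8 ± 1.09 in ft null (SD, n = 4) and 16.5 ± 2.85 in w1118 (SD, n = 2). That difference is larger than the w1118 SD. Its 4 mutant sums, 11.4 to 14.0, lay below both controls, 14.5 and 18.5, by a narrow margin at the nearest values. Voltage-gated channels stood to ligand-gated receptors, nerve and muscle together, at a ratio of 0.507, 0.518, 0.530 and 0.554 in ft null and 0.557 and 0.606 in w1118. The 4 mutant ratios lay below both controls, the highest of them by a narrow margin. Against nerve receptors alone the ratio overlapped, at 0.748 to 0.809 in ft null and 0.801 and 0.839 in w1118. Muscle receptors stood to nerve receptors at 0.576, 0.444, 0.526 and 0.444 in ft null, above 0.437 and 0.384 in w1118, again by a narrow margin at the nearest values. No ratio was tested, because it is a score over members chosen with earlier results known.

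**Figure D3:**
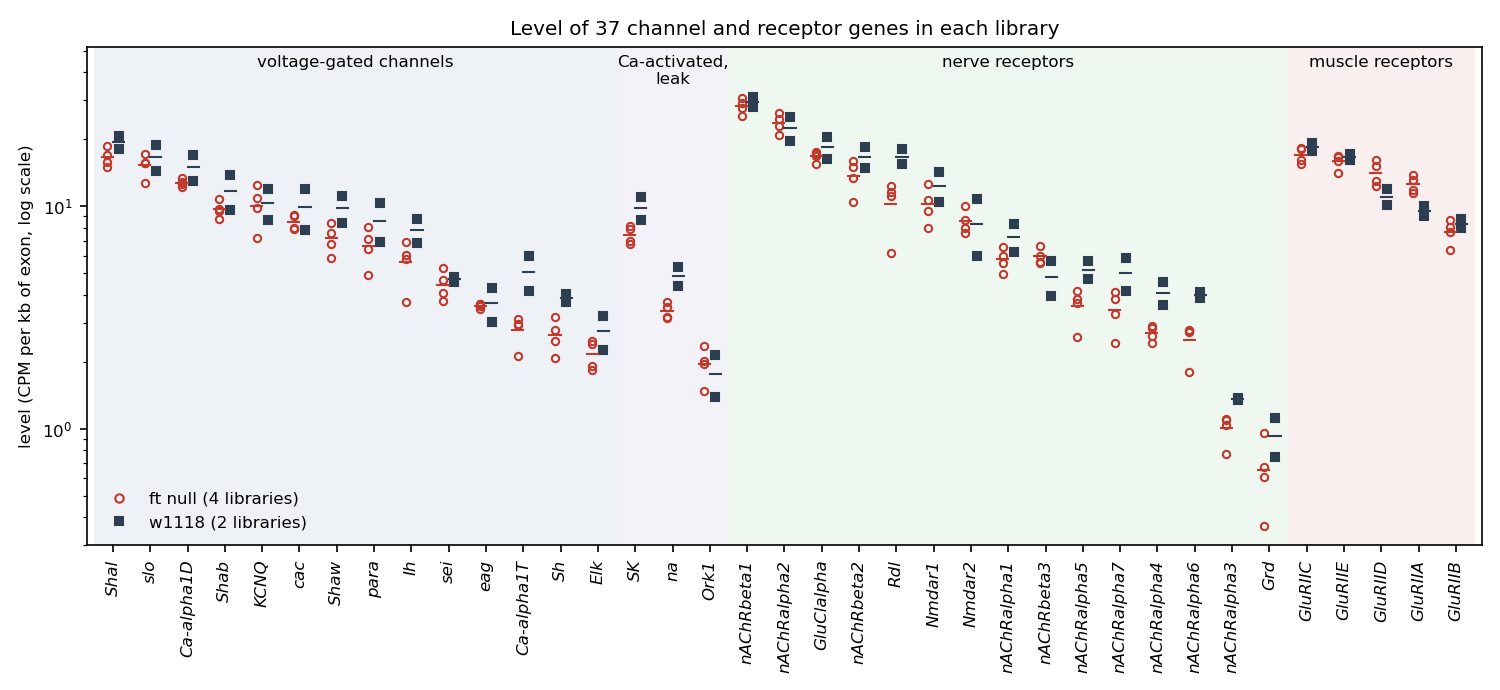
Level of each gene in every library, in CPM per kb of merged exon on a log axis, by class and in order of mean level. Open circles are the 4 ft null libraries, squares the 2 w1118 libraries, and short lines the group means. Levels run from below 1 for Grd to about 30 for nAChRbeta1.

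Ca-alpha1T, which encodes the T-type calcium channel that opens at low voltage, was the gene that fell. It lies on X from 6104085 to 6192483 on the minus strand (dm6, FBgn0264386), with no exon shared with another gene. It was at 27.8, 39.0, 38.4 and 40.7 CPM in ft null replicates 1 to 4 and at 54.6 and 78.4 CPM in w1118 replicates 1 and 2. Every mutant library was below both controls, and the controls differed more from each other than ft null replicates 2 to 4 did. The log2 fold change was -0.86 (standard error 0.19, edgeR adjusted p = 0.046), 1.82-fold lower in ft null. The call held without ft null replicate 1 (-0.75, edgeR adjusted p = 0.0212). It was lost without any other single library: ft null replicate 2, 3 or 4 (edgeR adjusted p = 0.109, 0.114 and 0.0565), w1118 replicate 1 (-1.10, adjusted p = 0.0626) or w1118 replicate 2 (-0.58, adjusted p = 0.257).

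The other voltage-gated calcium channels overlapped between genotypes. The gene cac encodes the channel that triggers transmitter release and stood at 94.7 to 109 CPM in the mutants and 93.6 and 143 CPM in w1118 (log2 fold change -0.21, standard error 0.171). Ca-alpha1D encodes the L-type channel, which is also the muscle calcium channel, and stood at 127 to 141 and at 136 and 179 CPM (log2 fold change -0.24, standard error 0.131). In both genes w1118 replicate 1 lay within or below the mutant range and only w1118 replicate 2 lay above it. The gene para, for the sodium channel of the action potential, was at 79.9, 105, 116 and 131 CPM in the mutants and 113 and 168 CPM in w1118 (log2 fold change -0.38, standard error 0.22, edgeR adjusted p = 0.387). Its mutant range of values spans w1118 replicate 1.

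Of the potassium channels, 2 of the 9 voltage-gated genes (22.2%) kept the genotypes apart, lower in the mutants, against 16.4% of all genes. None of the 9 passed the test. Sh encodes Shaker, a fast inactivating channel, and was at 47.3, 56.8, 72.5 and 63.5 CPM in the mutants and 84.8 and 91.8 CPM in w1118. Its log2 fold change of -0.56 (standard error 0.165) had an edgeR adjusted p = 0.109. Shaw, of the related Kv3 type, was at 29.2, 38.1, 34.0 and 42.1 CPM in the mutants, against 42.1 and 55.9 CPM in the controls. The highest mutant and the lower control of Shaw differ by less than the rounding shown (log2 fold change -0.45, standard error 0.174, edgeR adjusted p = 0.202). Shal, a Kv4 channel of dendrites and cell bodies, had the highest level per length of the voltage-gated class. It stood at 15.0, 16.9, 15.7 and 18.6 CPM per kb in ft null and 18.2 and 20.6 in w1118 (log2 fold change -0.23, standard error 0.123, edgeR adjusted p = 0.349). Elk, an ether-a-go-go-like channel, had the lowest level of that class, at 1.91, 1.84, 2.41 and 2.47 CPM per kb in ft null and 2.27 and 3.21 in w1118, with overlapping genotypes (log2 fold change -0.34, standard error 0.2). Level per length depends on the length used. With the longest transcript in place of merged exons the level of Sh was 4.93 in place of 2.63 CPM per kb in ft null and 7.25 in place of 3.87 in w1118.

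The remaining voltage-gated genes all overlapped between genotypes. The log2 fold changes of Shab, eag, sei, KCNQ and slo ran from -0.27 for Shab to -0.03 for KCNQ, and Ih, for the channel opened by hyperpolarisation, stood at -0.47 (standard error 0.228, edgeR adjusted p = 0.29). The 4 mutant values of eag were close together, at 36.9, 38.5, 38.0 and 38.5 CPM, between the controls at 32.1 and 45.8 CPM. KCNQ shares 27.4% of its exon length, and sei 14.6%, with genes on the opposite strand, which leaves their values uncertain. All 14 voltage-gated genes had a log2 fold change below 0, with a median of -0.25.

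SK and na, outside the voltage-gated class, also kept the genotypes apart with the mutants lower, as did 16.4% of all genes. SK encodes a potassium channel opened by calcium and was at 73.8, 76.4, 88.5 and 86.4 CPM in the mutants and 95 and 120 CPM in w1118 (log2 fold change -0.40, standard error 0.135, edgeR adjusted p = 0.147). Its level per length was the highest of its class, at 7.46 ± 0.665 CPM per kb in ft null (SD, n = 4) and 9.86 ± 1.62 in w1118 (SD, n = 2). The gene na encodes narrow abdomen, a sodium leak channel, and was at 24.9, 27.7, 25.0 and 29.1 CPM in the mutants and at 34.4 and 42.2 CPM in w1118. Its log2 fold change was -0.52 (standard error 0.131, edgeR adjusted p = 0.0683). Ork1, a potassium leak channel, was at 6.60, 9.08, 8.75 and 10.5 CPM in the mutants and at 6.21 and 9.58 CPM in w1118, so its genotypes overlapped (log2 fold change 0.16, standard error 0.245). The direction of Ork1 turned to -0.13 without w1118 replicate 1.

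Among the nerve receptors, 6 of 15 had all mutant values below both controls, 0 had them above, and 0 passed the test. Over all genes the shares apart were 16.4% lower and 15.1% higher. At an unadjusted edgeR p under 0.05 there were 6 lower and 0 higher, against 10.2% and 9.92% of all genes. DESeq2, which called 8.41% of all genes, called 2 of them lower, nAChRalpha4 and nAChRalpha6, and limma voom, which called 4.54%, called 0. Rdl, the subunit of the main GABA receptor, had the largest difference of the class. It was at 55.3, 104, 99.6 and 110 CPM in the mutants and at 139 and 162 CPM in w1118 (log2 fold change -0.70, standard error 0.249, edgeR adjusted p = 0.166). Its replicate 1 was the lowest of the 6 libraries, and without it the other 3 mutant libraries gave a smaller difference that passed (-0.52, edgeR adjusted p = 0.0354). GluClalpha, the glutamate-gated chloride channel, was at 103 to 116 CPM in the mutants and at 109 and 136 CPM in w1118 (log2 fold change -0.14, standard error 0.124). Grd had a log2 fold change of -0.51 (standard error 0.363) with overlapping genotypes.

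Over all genes, 16.4% kept the genotypes apart with the mutants lower. Of the 10 nicotinic subunit genes, the 5 from nAChRalpha3 to nAChRalpha7 each did so, and the other 5 overlapped. The first of these, nAChRalpha3, was at 8.12, 11.5, 10.9 and 11.6 CPM in the mutants and 14.1 and 14.4 CPM in w1118 (log2 fold change -0.43, standard error 0.175, edgeR adjusted p = 0.221). The gene nAChRalpha4 was at 14.7, 15.9, 17.5 and 17.3 CPM in the mutants and 21.7 and 27.5 CPM in w1118 (log2 fold change -0.59, standard error 0.145, edgeR adjusted p = 0.0648). The 4 mutant values of nAChRalpha4 lie close together and clear of both controls. For nAChRalpha5 the values were 24.3, 34.4, 39.0 and 36.1 CPM against 44.2 and 53.1 CPM (log2 fold change -0.54, standard error 0.187, edgeR adjusted p = 0.158). For nAChRalpha6, a target of the spinosyn insecticides, they were 14.0, 21.7, 21.2 and 21.3 CPM against 32.2 and 30.0 CPM (log2 fold change -0.67, standard error 0.185, edgeR adjusted p = 0.0892). The w1118 libraries lay close to each other in nAChRalpha3 and nAChRalpha6, and w1118 replicate 2 was not the higher control in nAChRalpha6. The gene nAChRalpha7, which encodes a subunit of the escape circuit, was at 14.0, 18.9, 22.1 and 23.7 CPM in the mutants and 23.9 and 34.0 CPM in w1118 (log2 fold change -0.55, standard error 0.227, edgeR adjusted p = 0.228).

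The nicotinic genes with the highest levels were among those that overlapped. Per length, nAChRbeta1 gave 31.2 ± 1.06% of the summed nicotinic level in ft null (SD, n = 4) and 29.5 ± 1.86% in w1118 (SD, n = 2). For nAChRalpha2 the shares were 26.2 ± 0.598% and 22.3 ± 0.81%. The sum includes nAChRbeta3, at mean shares of 6.60% and 4.75%, whose values are uncertain (below). The gene nAChRalpha2 was at 49.7 to 62.9 CPM in the mutants and 47.1 and 60.3 CPM in w1118 (log2 fold change 0.08, standard error 0.144). The genes nAChRalpha1 and nAChRbeta2 were at log2 fold changes of -0.33 (standard error 0.159) and -0.27 (standard error 0.18). On chromosome 3R, nAChRalpha1 ends 28270 bases from nAChRalpha2, which lies 18080 bases from nAChRbeta2. The share of nAChRalpha4 was 2.76 to 3.22% in ft null and 3.97 and 4.13% in w1118, and that of nAChRalpha5 was 3.36 to 4.62% and 5.21 and 5.15%. Shares sum to a fixed total, so they show unequal change between the subunits and not which of them moved. The values of nAChRbeta3, 8.52 to 10.2 CPM in the mutants and 6.04 and 8.70 CPM in the controls (log2 fold change 0.31, standard error 0.193), cannot be assigned to that gene. All of its exon length is shared with Ets21C on the opposite strand, which stood at 3.95 to 6.79 CPM in the mutants and 3.78 and 4.07 CPM in w1118.

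The NMDA receptor genes overlapped between genotypes. Nmdar1, the obligatory subunit, was at 33.2 to 52.3 CPM in the mutants and 43.5 and 59.5 CPM in w1118 (log2 fold change -0.27, standard error 0.197). Nmdar2 was at 60.6 to 80.4 and at 48.2 and 86.3 CPM (log2 fold change 0.03, standard error 0.225), with the controls further apart than the mutants. Nmdar1 gave 49.9 to 55.9% of their summed level per length in ft null and 63.5 and 57.1% in w1118.

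Both members with all mutant values above the controls, GluRIIA and GluRIID, were muscle receptors, but none of the 5 passed the test. Over all genes, 15.1% had all mutant values above both controls. At an unadjusted edgeR p under 0.05, 2 of the 5 were higher and 0 lower, against 9.92% and 10.2% of all genes. DESeq2 and limma voom called 0 of the 5. GluRIIA (2L from 5555072 to 5558994, plus strand, dm6, FBgn0004620) was at 37.1, 38.7, 45.1 and 42.9 CPM in the mutants and 29.4 and 32.6 CPM in w1118, so every mutant library was above both controls. Its log2 fold change was 0.40 (standard error 0.125, edgeR adjusted p = 0.121), the highest value among the 37 genes. Leaving out each library in turn gave 0.33 to 0.49. GluRIIB, the alternative subunit, starts 347 bases after the end of GluRIIA on the same strand (2L from 5559342 to 5563502). It was at 18.7, 23.7, 22.5 and 25.6 CPM in the mutants and 23.6 and 25.8 CPM in w1118, with overlapping genotypes (log2 fold change -0.12, standard error 0.149, edgeR adjusted p = 0.692). GluRIIB had the lowest level per length of the muscle class, at 7.67 ± 0.992 CPM per kb in ft null (SD, n = 4) and 8.37 ± 0.524 in w1118 (SD, n = 2).

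Of the level of this alternative pair per length, GluRIIA gave 64.3, 59.7, 64.5 and 60.3% in ft null and 53.0 and 53.4% in w1118. The 4 mutant shares lay above both controls, by more than the controls differed from each other. With 4 against 2 libraries this was not tested, and the share rests on the same GluRIIA and GluRIIB values as above. In ft null replicate 1, where most channel genes were lowest, the share lay within the range of the other mutants. GluRIIA and GluRIIB were both at their lowest mutant value there, 37.1 and 18.7 CPM. The share does not show which gene of the pair moved.

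The other 3 subunits are required in every muscle receptor. GluRIIC had the highest level of the muscle class, at 18.3, 15.6, 18.2 and 16.1 CPM per kb in ft null and at 17.7 and 19.3 in w1118 (log2 fold change -0.12, standard error 0.116, edgeR adjusted p = 0.62). GluRIID was at 49.7, 37.9, 46.9 and 40.0 CPM in the mutants and 31.2 and 36.7 CPM in w1118. Its lowest mutant value lay just above the higher control (log2 fold change 0.36, standard error 0.149, edgeR adjusted p = 0.228). GluRIIE was at 48.8, 54.9, 57.6 and 58.0 CPM in the mutants and 55.7 and 59.3 CPM in w1118, with overlapping genotypes (log2 fold change -0.07, standard error 0.113, edgeR adjusted p = 0.786). GluRIID (3R from 20648595 to 20652450) and GluRIIE (3R from 20644154 to 20648716) lie in tandem on the minus strand and their ends overlap by 122 bases, so reads from that stretch could belong to either gene. GluRIID gave 53.2, 43.6, 47.7 and 43.5% of the pair's level per length in ft null and 38.5 and 40.9% in w1118.

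**Figure D4:**
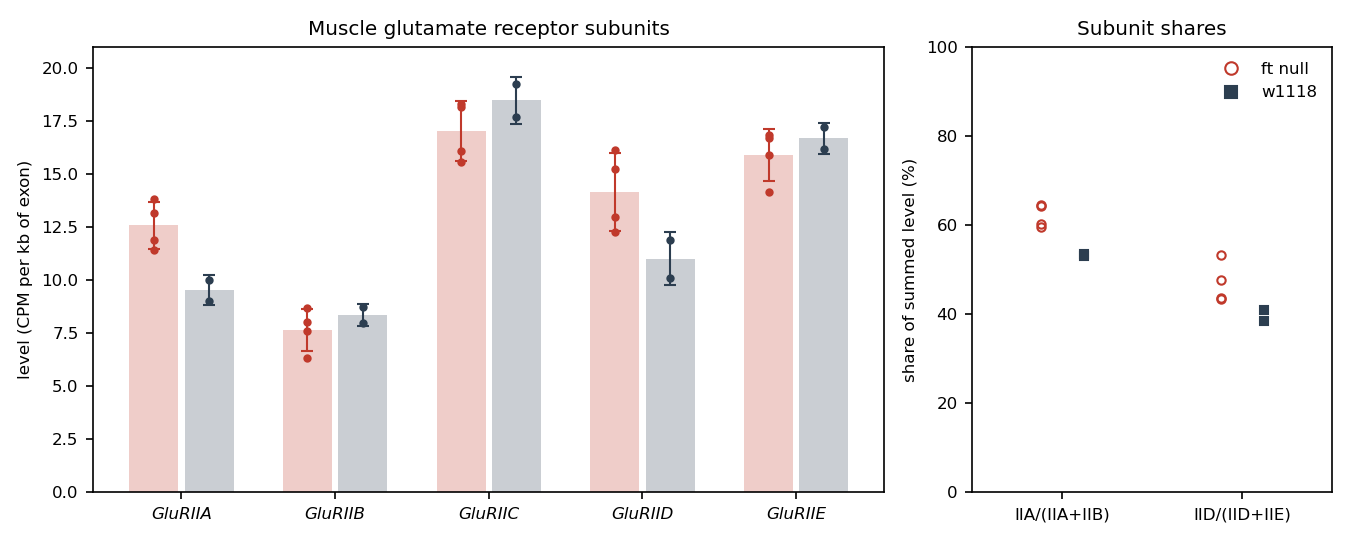
Left, level of the 5 muscle receptor genes in CPM per kb of merged exon, with bars for group means from 0, error bars for the SD and points for libraries (red, ft null, n = 4; dark, w1118, n = 2). Right, share of GluRIIA in the pair with GluRIIB and of GluRIID in the pair with GluRIIE, where the mutant shares lie above both controls (59.7 to 64.5% against 53.0 and 53.4% for GluRIIA).

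Of 24 somatic muscle markers tested, 0 passed, 15 were below 0 and the median log2 fold change was -0.10. In 8 of them all mutant values lay below both controls and in 0 above, against 16.4% and 15.1% of all genes. At an unadjusted edgeR p under 0.05 there were 4 lower and 0 higher, against 10.2% and 9.92% of all genes. Among these markers the LIM protein gene Mlp60A had the highest log2 fold change, 0.43 (standard error 0.204), with overlapping genotypes, and Act87E, an actin gene, the lowest, -0.67 (standard error 0.157), and both were picked after their values were seen. The marker with the highest level, the actin gene Act57B, had a log2 fold change of -0.21 (standard error 0.152), and the summed muscle marker level was 51999 to 63267 CPM in the mutants and 61660 and 68545 CPM in w1118. Of 14 genes of muscle synapse assembly, such as the receptor partner gene Neto, 0 passed, 6 were below 0 and the median was 0.04. Mutants had 425 ± 32.3 CPM (SD, n = 4) of the scaffold gene dlg1 and controls 387 ± 155 CPM (SD, n = 2). At an unadjusted edgeR p under 0.05, 1 of these synapse genes was lower and 0 higher.

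**Figure D5:**
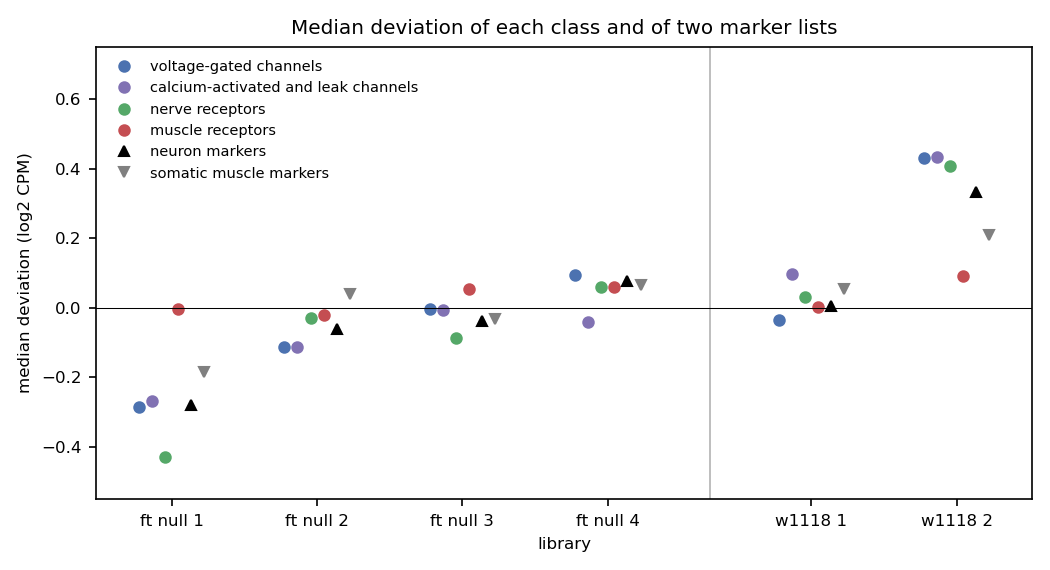
Median deviation of log2 CPM from the gene mean over the 6 libraries, for each class of members and for the neuron and somatic muscle markers. Channels and nerve receptors follow neuron markers, from -0.43 to -0.27 in ft null replicate 1 up to 0.41 to 0.43 in w1118 replicate 2. The muscle receptor median stays between -0.02 and 0.09, over genes that moved in different directions. In those same 2 libraries GluRIIB was at -0.31 and 0.15, whereas GluRIID was at 0.32 and -0.12.

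The neuron markers had a median log2 fold change close to those of the channel and nerve receptor classes. Of 21 neuron markers tested, 1 fell, 0 rose and 20 did not pass, 16 were below 0 and the median log2 fold change was -0.30. In 8 of them all mutant values lay below both controls and in 0 above, against 16.4% and 15.1% of all genes, and at an unadjusted edgeR p under 0.05 there were 7 lower and 0 higher, against 10.2% and 9.92%. The gene that fell was Rim, which encodes a scaffold of the presynaptic release site, with a mutant mean of 82.6 ± 3.67 CPM (SD, n = 4) against 125 ± 15.9 CPM (SD, n = 2) in controls. Its log2 fold change was -0.60 (standard error 0.112, edgeR adjusted p = 0.0266). The list ran from Rim to brp, a scaffold gene of the same release site, at 0.26 (standard error 0.223), with unc-13 at -0.52, Syx1A at -0.41, fne at -0.37, nSyb at 0.05 and elav at 0.07 between them. The 12 glia markers had a median of 0.03, with 0 called. The glial ion pump gene nrv2 had the highest level among them, with a log2 fold change of -0.15.

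Because the neuron markers moved with the members, each gene's deviation was also set against the median deviation of the neuron markers in the same library, a measure chosen after the data were seen. On that scale all genes tested had a median difference of 0.26 between ft null and w1118, since the subtraction lifts the mutants. Of the 37 members 10 then had all mutant values below both controls, or 27.0%, against 6.32% of all genes. The subtraction itself took this share of all genes from 16.4% to 6.32%, and the share above both controls from 15.1% to 26.2%. Neither share is therefore a like measure for members that move with the neuron markers. The 10 were Ca-alpha1T, Shaw, Ih, SK, na, Rdl and the 4 nicotinic genes nAChRalpha4 to nAChRalpha7. Another 9 members, or 24.3%, lay above both controls, against 26.2% of all genes, and they included GluRIIA, GluRIID, nAChRalpha2 and nAChRbeta1. Ca-alpha1T had the lowest difference, -0.61, with relative values of -0.38, -0.11, -0.16 and -0.19 in ft null and 0.31 and 0.50 in w1118. Rdl followed at -0.51 and nAChRalpha6 at -0.44, whereas para (-0.13) and Sh (-0.33) overlapped between genotypes. GluRIIA and GluRIID stood at 0.64 and 0.60. The median over the members was -0.01. The result is a description with no test.

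Genes of excitability outside the 37 are read against the same shares of all genes, 4.3% called, and 10.2% lower and 9.92% higher at an unadjusted edgeR p under 0.05. Of 15 channel accessory subunits and regulators 0 passed, 13 were below 0 and the median log2 fold change was -0.30. Mid1, a regulator of the narrow abdomen channel with the highest level of that list, had a log2 fold change of 0.10. Of 7 tested inward rectifier, two-pore and sodium channel genes 0 passed (median -0.19), and NaCP60E had means of 68.8 CPM in the mutants and 79.1 CPM in the controls. Of 12 transient receptor potential and related channels 0 passed (median -0.22), and the heat and touch sensor gene pain had a log2 fold change of -0.03. At that unadjusted p, the accessory list held 3 lower and 0 higher and each of the other lists here 1 lower and 0 higher.

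Of 10 other ionotropic glutamate receptors, 1 fell, 0 rose and 9 did not pass, with a median of -0.00. At an unadjusted edgeR p under 0.05, 2 of them were lower and 1 higher, against 10.2% and 9.92% of all genes. The gene that fell was Grik, of the kainate receptor type, with a mutant mean of 0.961 ± 0.263 CPM (SD, n = 4) against 2.98 ± 0.395 CPM (SD, n = 2) in controls. Its log2 fold change was -1.61 (standard error 0.295, edgeR adjusted p = 0.0245). The mutant values of Grik, 0.618 to 1.26 CPM, rest on few reads. Of 6 other ligand-gated chloride channels 0 passed (median -0.11), and Lcch3, a partner of the GABA receptor family, had a log2 fold change of -0.18. Of 5 genes of nicotinic receptor assembly and modulation 0 passed (median -0.07), and the acetylcholinesterase gene Ace had means of 137 and 139.6 CPM.

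Metabotropic receptors, which signal through G proteins, were the list with the lowest median, -0.40 over 24 genes, of which 21 were below 0 and 0 passed. At an unadjusted edgeR p under 0.05, 9 of them were lower and 2 higher, against 10.2% and 9.92% of all genes, and mAChR-A, with the highest level, had a log2 fold change of 0.07. Of 17 genes of transmitter synthesis and transport 0 passed, 16 were below 0 and the median was -0.18, with 4 lower and 0 higher at an unadjusted edgeR p under 0.05. Ddc, which makes dopamine and serotonin and also serves the cuticle, had a log2 fold change of 0.02. For markers of other tissues the median was 0.14 for 14 epidermis markers (verm, a chitin deacetylase gene, 0.54) and -0.23 for 10 midgut markers (GATAe -0.32). It was 0.00 for 8 fat body markers (apolpp 0.14) and 0.20 for 13 hemocyte markers. Of these 13, 1 fell and 0 rose, against 2.15% each way of all genes, and 5 were below 0. At an unadjusted edgeR p under 0.05, 3 of the 13 were lower and 3 higher, against 10.2% and 9.92% of all genes. The hemocyte marker that fell was PPO2, a crystal cell gene (-1.55, edgeR adjusted p = 0.00516).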

How the data were processed

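The deposited values are estimated counts for each gene in each library and had not been scaled. The submitters' processing notes list FastQC 0.10, Trimmomatic 0.33, Salmon 1.80, edgeR and the build dm6; no source used here gives the annotation release or options. Per the labels' protocols, cDNA was made from 10 ng of total RNA with the SMARTer Ultra Low kit, which does not mark strand. Estimated counts were rounded, filtered with filterByExpr, scaled by TMM and tested with edgeR 4.0.16 (quasi-likelihood F test, R 4.3.3) with genotype as the term, adjusted by Benjamini and Hochberg over 11542 genes. The standard error is the size of the log2 fold change divided by the square root of F. CPM uses TMM-scaled totals, and log2 CPM a prior count of 2. Exon lengths, positions and overlaps came from Ensembl release 115 (BDGP6.54, dm6 coordinates). DESeq2 1.42.0, limma 3.58.1 (voom), RLE scaling, no low-count filter, each library left out and replicates 1 and 2 alone were alternatives.

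The members, lists and tests were chosen with earlier results of these data known. Of 228 list entries 223 matched the table, after spelling was adapted to it. Values per library are given for members called, separated between genotypes with an unadjusted p under 0.05, of the muscle class, highest or lowest per length in a class, or with the largest change either way. Each list is given with up to 2 called genes, or else its highest. Other genes named, such as para, cac and elav, were chosen after their values were seen. Separate embryo collections are not stated for the replicates, so a p-value reflects the variation among these libraries, which may be technical.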

Additional observations from a re-analysis of the deposited data

Results flagged for a closer look

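Among 42 values examined over the ft null libraries (each gene, each class sum and the GluRIIA share), 1 had a library far from the others. In nAChRalpha6, ft null replicate 1 stood at 14.0 CPM, whereas replicates 2 to 4 lay between 21.2 and 21.7 CPM. The gap below them was 0.9365 of the whole range, past the critical value of Dixon's test for 4 libraries. Chance marks about 5% of such groups. Replicate 1 held the lowest of all 6 libraries for 26 of the 37 genes. Without it, nAChRalpha6 had a log2 fold change of -0.54 and passed (edgeR adjusted p = 0.0287).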

How the results depend on the processing

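Of the 37 genes, 1 was called lower (Ca-alpha1T), also with RLE scaling and with no low-count filter. DESeq2 called 5 lower (Ca-alpha1T, Sh, na, nAChRalpha4 and nAChRalpha6) and limma voom called 0. Of all genes these methods called 8.41% and 4.54%. Leaving out each library gave 0 to 3 called lower, with 3 (Ca-alpha1T, Rdl and nAChRalpha6) without ft null replicate 1 and 0 without any other. No setting called a gene higher. Over all genes, 248 were called higher and 248 lower, against 517 and 453 by DESeq2. Leaving out each library gave 101 to 425 higher and 72 to 381 lower. On replicates 1 and 2 alone without a block these counts were 131 and 117, with 0 members. With the replicate number as a block, 3 members were called (Ca-alpha1T, Sh and Rdl), against 231 higher and 262 lower over all genes. Deviations of same-numbered libraries correlated at 0.153 and -0.0407, but deviations of 2 controls are opposite by construction, so this does not settle whether the numbers pair the libraries, and the labels do not say. Leaving out each library moved the class medians over -0.50 to -0.060 for voltage-gated channels, -0.56 to -0.22 for calcium-activated and leak channels, -0.48 to -0.10 for nerve receptors and -0.11 to -0.017 for muscle receptors. The muscle median was -0.13 on replicates 1 and 2, with or without the block. Ork1 ran from -0.13 to 0.50 and nAChRbeta1 from -0.14 to 0.020 over the same omissions, and Ork1 was -0.0042 on replicates 1 and 2 without a block. With the longest transcript as length, the summed ft null level was 127.4 CPM per kb for voltage-gated channels and 14.57 for calcium-activated and leak channels. Over 12 alternatives GluRIIA stayed between 0.29 and 0.49 and GluRIID between 0.25 and 0.49, with 0 calls. Except where a setting leaves out libraries or changes the length, the cause of these differences was not tested.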
